A study of Mus musculus with 4 samples.

Results

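The receptor gene Cd44 and 6 genes of hyaluronan synthesis, breakdown and matrix (Has1, Has2, Has3, Hyal1, Hyal2 and Vcan) were followed in mouse podocytes with and without interleukin 12 (IL-12). They were taken by name, 7 of the 54532 genes of the deposited count table, in which each has 1 row, and 7 of 7 passed the filter on low counts that left 14095 genes for the test. Hyaluronan is a very long, unsulfated sugar chain that cells spin out through the plasma membrane into the matrix around them. It is made by the synthases Has1, Has2 and Has3, cut by hyaluronidases such as Hyal1 and Hyal2, held in the matrix by proteoglycans such as versican (Vcan), and bound at the cell surface by its main receptor, CD44. In the glomerulus CD44 is widely used as a marker of activated parietal epithelial cells, and it is also found on injured podocytes.

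The cells were MPC5, a conditionally immortalized line of mouse podocytes that represents a single cell type grown alone, without the basement membrane or the other cells of a glomerulus. RNA was sequenced from 2 libraries of cells given IL-12 at 400 ng/ml for 6 h and from 2 control libraries of cells given saline. The line grows in the presence of interferon-γ and is kept without it for differentiation. Whether each library is a culture of its own is not stated, so the p-values measure only the spread between these libraries, which may be technical. The question was which of these genes changed after IL-12. The libraries held 18355379 to 20098012 counts, and 3 counts correspond to 0.152 to 0.166 CPM (counts scaled to library size, here with TMM factors, which set the bulk of genes equal between libraries), a limit that covers counting error only.

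The podocyte identity of the cells was partial in the counts. Of 12 podocyte markers, 7 passed the filter, among them Synpo, Actn4, Cd2ap, Kirrel, Nes and Podxl, while Nphs1, which encodes nephrin of the slit diaphragm, had at most 1 count in any library, Wt1 had 4 to 16, and Ptpro and Tcf21 had 0 counts in all of them. The summed level of the podocyte list was 3450 to 3460 CPM in the control libraries and 4040 to 4050 CPM in the IL-12 libraries, and 4 of its genes rose while 1 fell. The parietal epithelial list of 4 markers, which bears on Cd44, summed to 162 to 169 CPM in the control group and to 129 in both IL-12 libraries, nearly all of it Pax8. The mesangial list of 4 markers summed to 54.2 to 56.5 CPM and to 60.4 to 68.9 CPM. The tubular list of 4 markers summed to 632 to 659 CPM and to 517 to 558 CPM, nearly all of it Lrp2, with Slc34a1 and Umod at 0 counts. The lists of 6 leukocyte and 5 endothelial markers reached at most 7.30 and 0.556 CPM, with Cd3e and Emcn at 0 counts in every library. The part of these shifts in the results below was not tested, and in bulk RNA a change in the number of cells of a kind and a change in RNA per cell cannot be told apart.

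IL-12 treatment was followed by more Cd44 and Has2 and less Has1 transcript, as tested in edgeR (quasi-likelihood, Benjamini-Hochberg adjustment over all genes tested). The Has1 call was close to the threshold and passed in 6 of 11 alternative settings that kept every library, where Cd44 and Has2 passed in 11 of 11. Has3, Hyal1, Hyal2 and Vcan did not pass the edgeR test. Thus 3 of the 7 genes were called at an adjusted p below 0.05, where 30.5% of all genes tested were called. In the upward direction 2 of 7 were called against 16.1% of all genes, and in the downward direction 1 of 7 against 14.4%. With a change over 2-fold required as well, Cd44 and Has2 were the genes called, against 0.858% of all genes that were called upward by this rule. The median log2 fold change (log2FC, IL-12 against control) was 0.09 over the 7 genes and -0.0022 over all genes tested. The IL-12 and control libraries did not overlap in 6 of the 7 genes, which was the case for 62.9% of all genes tested. The 7 genes were chosen with earlier results of these data known, so these comparisons do not test them as a group.

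**Figure D1:**
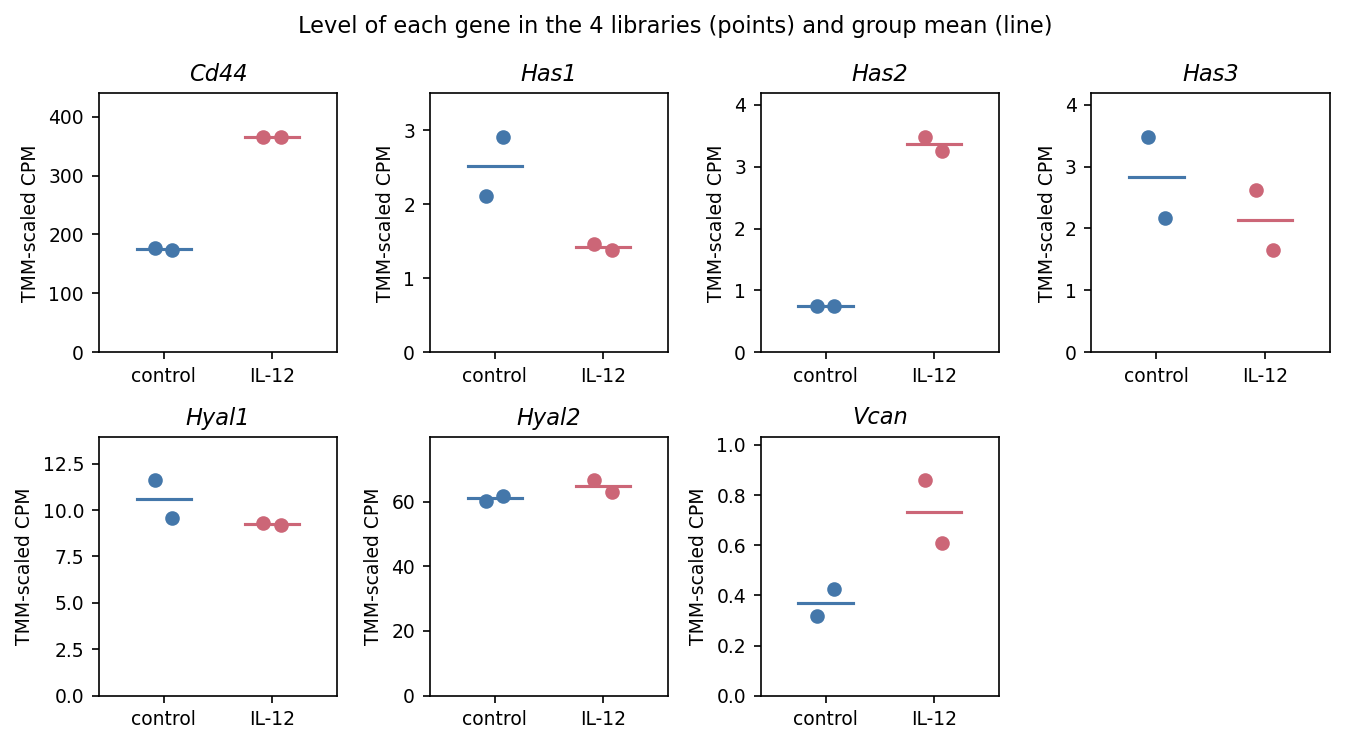
Level of each of the 7 genes in TMM-scaled CPM (vertical axes start at 0 and differ between panels), with 1 point per library and a line at the mean of the 2 libraries of a group. Cd44 and Has2 stand apart in the IL-12 libraries, at 365 to 366 and 3.26 to 3.49 CPM, whereas the libraries of the groups overlap for Has3.

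The receptor gene Cd44 (ENSMUSG00000005087) lies on the minus strand of chromosome 2 of GRCm38 from 102811141 to 102901665. The annotation lists 9 transcripts, 8 of them protein-coding, with up to 19 exons, since a block of variable exons can be spliced into the extracellular stem of the protein. The window just before its start is shown because Cd44 had the smallest p-value of the 7 genes. A window of the same length is shown for Has1, the gene of the 7 that was called lower, close to the threshold. Both are the 250 bases upstream of the annotated start in RefSeq's GRCm38.p6, written 5′ to 3′ on the gene's own strand, Cd44 at chr2:102901666-102901915 and Has1 at chr17:17855189-17855438, and capitals mark a match to a searched motif.
Cd44: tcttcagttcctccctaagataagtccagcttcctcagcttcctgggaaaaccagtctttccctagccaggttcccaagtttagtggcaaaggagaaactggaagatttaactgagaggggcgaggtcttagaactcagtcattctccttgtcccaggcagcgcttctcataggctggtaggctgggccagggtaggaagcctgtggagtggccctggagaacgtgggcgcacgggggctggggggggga
Has1: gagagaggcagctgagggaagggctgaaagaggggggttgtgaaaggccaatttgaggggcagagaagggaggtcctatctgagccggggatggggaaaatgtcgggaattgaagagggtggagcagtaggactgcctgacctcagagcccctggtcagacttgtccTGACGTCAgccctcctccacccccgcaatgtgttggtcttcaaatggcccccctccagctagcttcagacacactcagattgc

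The motifs searched on both strands were the AP-1 site TGANTCA, the cyclic AMP response element TGACGTCA, the TEAD site GGAATG, the GC box GGGCGG and the TATA box TATAAA, and these letters do not overlap one another as searched. The Cd44 window held none of them. The Has1 window held TGACGTCA once, starting 83 bases before the RefSeq start, and none of the other motifs. That start, at 17855188, lies inside the Has1 coordinates given below, which end at 17855205. The last bases of the window thus fall within those coordinates. TGACGTCA was added to the search after the Has1 sequence had been seen, and it occurs in 1.55% of the 32851 windows of this length. The other motifs occur in 6.75% (AP-1), 12.6% (TEAD), 32.7% (GC box) and 12.4% (TATA box) of them. GC content was 56.4% in the Cd44 window and 58.0% in that of Has1, against a median of 52.4%. Of the 7 genes, 5 had a window in this table, and Has2 and Has3 are named only.

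Cd44 had 3355 and 3286 counts in controls and 7215 and 6623 after IL-12. In CPM these were 177 and 174 in the control group and 365 and 366 in the IL-12 group. The IL-12 libraries thus lay far above the control libraries, and the libraries of each group were close to each other. The mean level was 176 ± 2.11 CPM without and 365 ± 0.972 CPM with IL-12 (SD, n = 2 each). The log2FC was 1.06 (standard error, SE, 0.03), a ratio of 2.08 with a 95% interval from 1.98 to 2.19 and an edgeR adjusted p = 5.94e-14. Among the 14095 genes tested, Cd44 was at rank 10 by p-value and at rank 139 by log2FC. Per length, in FPKM (the library-scaled count per kilobase of exon), its level of 25.9 ± 0.280 FPKM (SD, n = 2) in the control group was above that of 84.3% of the genes tested, and its 54.0 ± 0.148 FPKM (SD, n = 2) in the IL-12 group was above 93.3% of them. The counts are summed over all transcripts of a gene, so the standard form of CD44 and its splice variants cannot be told apart. The 107 bases of the small nuclear RNA gene Gm23731, on the opposite strand within Cd44, had 0 counts.

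Has2 (ENSMUSG00000022367), whose product makes long hyaluronan chains and is the synthase required for heart development in the mouse embryo, lies on the minus strand of chromosome 15 from 56665627 to 56694539 and has a single annotated transcript of 4 exons. It had 14 and 14 counts in controls and 69 and 59 after IL-12. Scaled, these were 0.739 and 0.742 CPM in the control group and 3.49 and 3.26 CPM in the IL-12 group, and the groups did not overlap. The ratio of the groups was 4.53, with a 95% interval from 2.93 to 7.0, which is a log2FC of 2.18 (SE 0.30, adjusted p = 1.59e-05 in edgeR). By log2FC Has2 was at rank 17 of the 14095 genes tested, and by p-value at rank 795. The antisense gene Has2os shares 182 exonic bases with Has2 on the opposite strand. Has2os had 2 and 0 counts in controls and 10 and 4 after IL-12, too few to pass the filter. No source states that strand was used in counting, so reads within the shared bases cannot be assigned. Has2os had 16 counts in all against 156 for Has2, and the part of this overlap in the change of Has2 was not tested.

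Has1 (ENSMUSG00000003665), a synthase of low activity, lies on the minus strand of chromosome 17 from 17843323 to 17855205, where no other gene of the table overlaps it. It had 40 and 55 counts in controls and 29 and 25 after IL-12. The control libraries, at 2.11 and 2.91 CPM, were both above the IL-12 libraries, at 1.47 and 1.38 CPM, and they differed more from each other. The log2FC was -0.81 (SE 0.29), a ratio of 0.568 with a 95% interval from 0.372 to 0.868 and an edgeR adjusted p = 0.0405. This call was close to the threshold. The adjusted p was 0.2 with the DESeq2 Wald test, 0.0575 with limma voom and 0.0777 without the filter on low counts, and it was 0.339 without the second control library, 0.164 without the first IL-12 library and 0.169 without the second IL-12 library.

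Has3 (ENSMUSG00000031910), a synthase reported to make shorter chains, lies on the plus strand of chromosome 8 from 106870242 to 106884566. Has3 had 66 and 41 counts in controls and 52 and 30 after IL-12. The ranges of the groups overlapped, and within each group the higher library had over 1.5 times the level of the lower. The log2FC of -0.39 (SE 0.29, 95% interval -1.0 to 0.22) did not pass the edgeR test (adjusted p = 0.352), and it was -0.0076 without the first control library and -0.77 without the first IL-12 library. Has3 shares 352 exonic bases with Chtf8 on the opposite strand, a gene with 13431 counts over the 4 libraries against 189 for Has3, so its level is uncertain.

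Set side by side per length, the make-up of the synthase transcripts differed between the groups. In the control libraries Has2 was the lowest synthase, at 0.174 and 0.175 FPKM, beneath Has1 at 0.467 and 0.646 FPKM and Has3 at 0.546 and 0.341 FPKM. The ranges of Has1 and Has3 overlapped, so these neighbours did not differ beyond their spread. In the IL-12 libraries Has2 was the highest, at 0.824 and 0.770 FPKM, above Has3 at 0.412 and 0.260 FPKM and Has1 at 0.325 and 0.306 FPKM, of which the last pair again overlapped. Has2 thus made up 14.7% and 15.1% of the summed synthase FPKM in controls and 52.8% and 57.6% after IL-12. These shares rest on 110 to 150 synthase counts a library and include Has3, whose level is uncertain because of its overlap with Chtf8. The sum itself was 1.19 and 1.16 FPKM in the control group and 1.56 and 1.34 FPKM in the IL-12 group, a smaller difference than that of Has2 alone. With 2 libraries a group, the smallest two-sided p of an exact permutation test is 0.333, so these shares are given without a test.

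**Figure D2:**
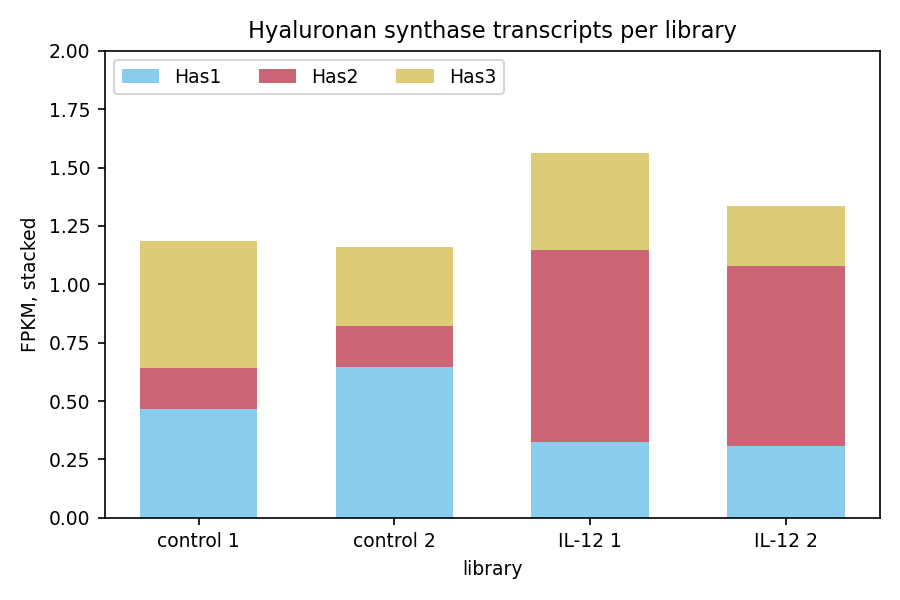
FPKM of Has1, Has2 and Has3 stacked for each of the 4 libraries, with the axis starting at 0. The Has2 segment grows from 14.7% and 15.1% of the bar in the control libraries to 52.8% and 57.6% in the IL-12 libraries, while the bars reach 1.16 to 1.19 FPKM and 1.34 to 1.56 FPKM. The level of Has3 is uncertain because it shares exonic bases with Chtf8.

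The hyaluronidase genes lie next to each other on the plus strand of chromosome 9. Hyal2 (ENSMUSG00000010047), from 107567945 to 107572779, encodes an enzyme anchored at the cell surface that cuts hyaluronan into large fragments. It had 1141 and 1167 counts in controls and 1318 and 1138 after IL-12, which is 61.0 ± 1.13 and 64.8 ± 2.63 CPM (SD, n = 2 each). The CPM of the groups did not overlap, but the gap was small beside their spread. The ratio was 1.06 with a 95% interval from 0.982 to 1.15 (adjusted p = 0.254 in edgeR), so that a change of the size seen for Cd44 lies outside the interval. The antisense gene Gm9917 overlaps the Hyal2 locus without sharing exonic bases.

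Hyal1 (ENSMUSG00000010051), from 107576927 to 107581710, encodes the lysosomal hyaluronidase that cuts the fragments further. It had 220 and 181 counts in controls and 184 and 166 after IL-12. The control libraries, at 11.6 and 9.59 CPM, lay above the IL-12 libraries, at 9.30 and 9.18 CPM, by less than they differed from each other. The ratio was 0.872 with a 95% interval from 0.720 to 1.06 (adjusted p = 0.288 in edgeR). Hyal1 shares 1920 exonic bases with Nat6 and 159 with Hyal3 on the same strand, so the counting could have split reads between them. Nat6 had 982 counts in all against 751 for Hyal1, and its ratio did not pass the test either (log2FC -0.07, adjusted p = 0.707). Per length, Hyal2 at 18.5 ± 0.367 FPKM (SD, n = 2) was far above Hyal1 at 2.81 ± 0.375 FPKM (SD, n = 2) in the control group. The FPKM of Cd44 was 1.43 and 1.37 times that of Hyal2 in controls and 2.66 and 2.83 times after IL-12.

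Vcan (ENSMUSG00000021614), the gene of versican, a large proteoglycan that binds hyaluronan through its amino-terminal domain, lies on the minus strand of chromosome 13 from 89655312 to 89742509. It had 6 and 8 counts in controls and 17 and 11 after IL-12, and per length it was the lowest of the 7 genes. Both IL-12 libraries, at 0.859 and 0.608 CPM, were above both control libraries, at 0.317 and 0.424 CPM. The ratio of 1.98 had a 95% interval from 0.920 to 4.24 and did not pass the edgeR test (adjusted p = 0.177), so neither no change nor a change of the size seen for Cd44 lies outside it at this depth. Per length its level was 0.0256 ± 0.00527 FPKM (SD, n = 2) in the control group and 0.0508 ± 0.0123 FPKM (SD, n = 2) in the IL-12 group. The antisense gene Gm4117 overlaps the locus without sharing exonic bases and had 30 counts in all against 42 for Vcan.

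The other genes of the pathway were taken from lists of 61 genes found in the count table, of which 31 passed the filter and 23 had at most 3 counts in every library. By the edgeR test 7 of the 31 rose and 9 fell, which is 51.6% called against the 30.5% of all genes tested. The lists were made with earlier results of these data known, those of Spp1 and Mmp9 among them, so this comparison does not test the pathway. The median log2FC of the 31 genes was -0.00458. Of the calls, 16 of 16 kept their direction in all 15 alternative settings, and 8 passed in each of them.

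Hyaluronan is built from UDP-glucuronic acid and UDP-N-acetylglucosamine. Of 6 tested genes that supply them 3 rose and 0 fell, against 16.1% and 14.4% of all genes tested. Ugdh, which makes UDP-glucuronic acid, went from 229 ± 4.80 to 286 ± 3.25 CPM (SD, n = 2 each), a log2FC of 0.32 (SE 0.03, adjusted p = 9.01e-07). Uap1, which makes UDP-N-acetylglucosamine, rose by 0.34 on the log2 scale (SE 0.05, adjusted p = 7.14e-05). Gfpt1, the entry enzyme of the hexosamine pathway, rose by 0.17 (SE 0.05, adjusted p = 0.00817), a call lost without the first control library or the second IL-12 library. Ugp2, Pgm3 and Gnpnat1 had log2FC values of -0.14, 0.16 and 0.27 and did not pass. These changes were each smaller than that of Has2.

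Of 5 other tested genes of hyaluronan breakdown, 1 rose and 3 fell, against 16.1% and 14.4% of all genes tested. Hyal1 and Hyal2, which did not pass, are not counted among them. Cemip, a hyaluronan-depolymerizing protein, had 358 and 340 counts in controls and 272 and 249 after IL-12, and it fell from 18.5 ± 0.624 to 13.8 ± 0.010 CPM (SD, n = 2 each), a log2FC of -0.42 (SE 0.10, adjusted p = 0.0029 in edgeR). Hexa, which encodes a subunit of lysosomal hexosaminidase, had a log2FC of -0.23 (adjusted p = 0.0144), and its call was lost in 3 of the 4 fits that left out 1 library (the first control library or either IL-12 library). Gusb, the lysosomal β-glucuronidase, went the other way, by 0.25 (adjusted p = 0.00134), and lost its call without the first IL-12 library. Tmem2, a hyaluronidase of the cell surface, had a log2FC of 0.08 (adjusted p = 0.239). Hyal4, Hyal5 and Spam1 had 0 counts in every library, and Hyal6 had 1 in all.

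Of 7 other receptors 4 passed the filter, and of these Hmmr, which is tied to the mitotic spindle as well as to hyaluronan, fell by 0.15 on the log2 scale (SE 0.05, adjusted p = 0.0242), a call lost in 3 of the 4 fits that left out 1 library (the first control library or either IL-12 library). Layn, Tlr2 and Tlr4 had log2FC values of 0.61, 0.14 and -0.05 and did not pass (adjusted p = 0.162, 0.273 and 0.725). The lymphatic receptor gene Lyve1 had 0 counts. Of the 16 matrix and linking proteins 0 passed the filter and 11 had at most 3 counts in every library, among them Acan, Ncan and Tnfaip6 with 0. No aggrecan family gene other than Vcan therefore reached a level that could be compared.

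Among 12 tested partners, ligands and proteases of CD44, 3 rose and 3 fell, against 16.1% and 14.4% of all genes tested. Moesin (Msn) and ezrin (Ezr), which link the tail of CD44 to actin, moved in opposite directions. Msn had 22714 and 22063 counts in controls and 31233 and 28894 after IL-12, a log2FC of 0.42 (SE 0.02, adjusted p = 3.36e-10). Ezr had 12756 and 12860 counts and then 10577 and 9802, a log2FC of -0.33 (SE 0.03, adjusted p = 3.77e-08). Radixin (Rdx) had a log2FC of 0.09 and did not pass (adjusted p = 0.0678), nor did Met, Nf2, Cd74 or Esrp2. Ank3, the gene of an ankyrin that tethers membrane proteins to spectrin, had 170 and 156 counts in controls and 74 and 62 after IL-12, and its log2FC of -1.26 (SE 0.16, adjusted p = 7.21e-06) was the lowest of the pathway genes tested. The calls of Ank3 and Cemip were lost with log2(FPKM + 1) and log2(FPKM + 0.1), and both passed with each library left out. Spp1, which encodes the CD44 ligand osteopontin, and Mmp9, whose protease can dock on CD44, rose by 1.13 and 1.44 on the log2 scale (adjusted p = 1.13e-14 and 1.01e-07), and both were known to be higher in these libraries when the list was made. Of the proteases that shed CD44, Adam17 fell by 0.14 (adjusted p = 0.037), a call lost in all 4 fits that left out 1 library, Adam10 had a log2FC of -0.02 (adjusted p = 0.759), and Mmp14 had 1 count in each of 2 libraries.

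Of the 4 tested proteases that can cut versican, 2 fell and 0 rose, against 14.4% and 16.1% of all genes tested. Adamts9 had 468 and 431 counts in controls and 249 and 229 after IL-12, a log2FC of -0.91 (SE 0.10, adjusted p = 7.47e-07). Adamts1 had 17834 and 17776 counts and then 15059 and 13733, a log2FC of -0.31 (SE 0.03, adjusted p = 3.78e-08). Adamts4 and Adamts5 had log2FC values of 0.34 and -0.07 and did not pass (adjusted p = 0.341 and 0.0899).

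**Figure D3:**
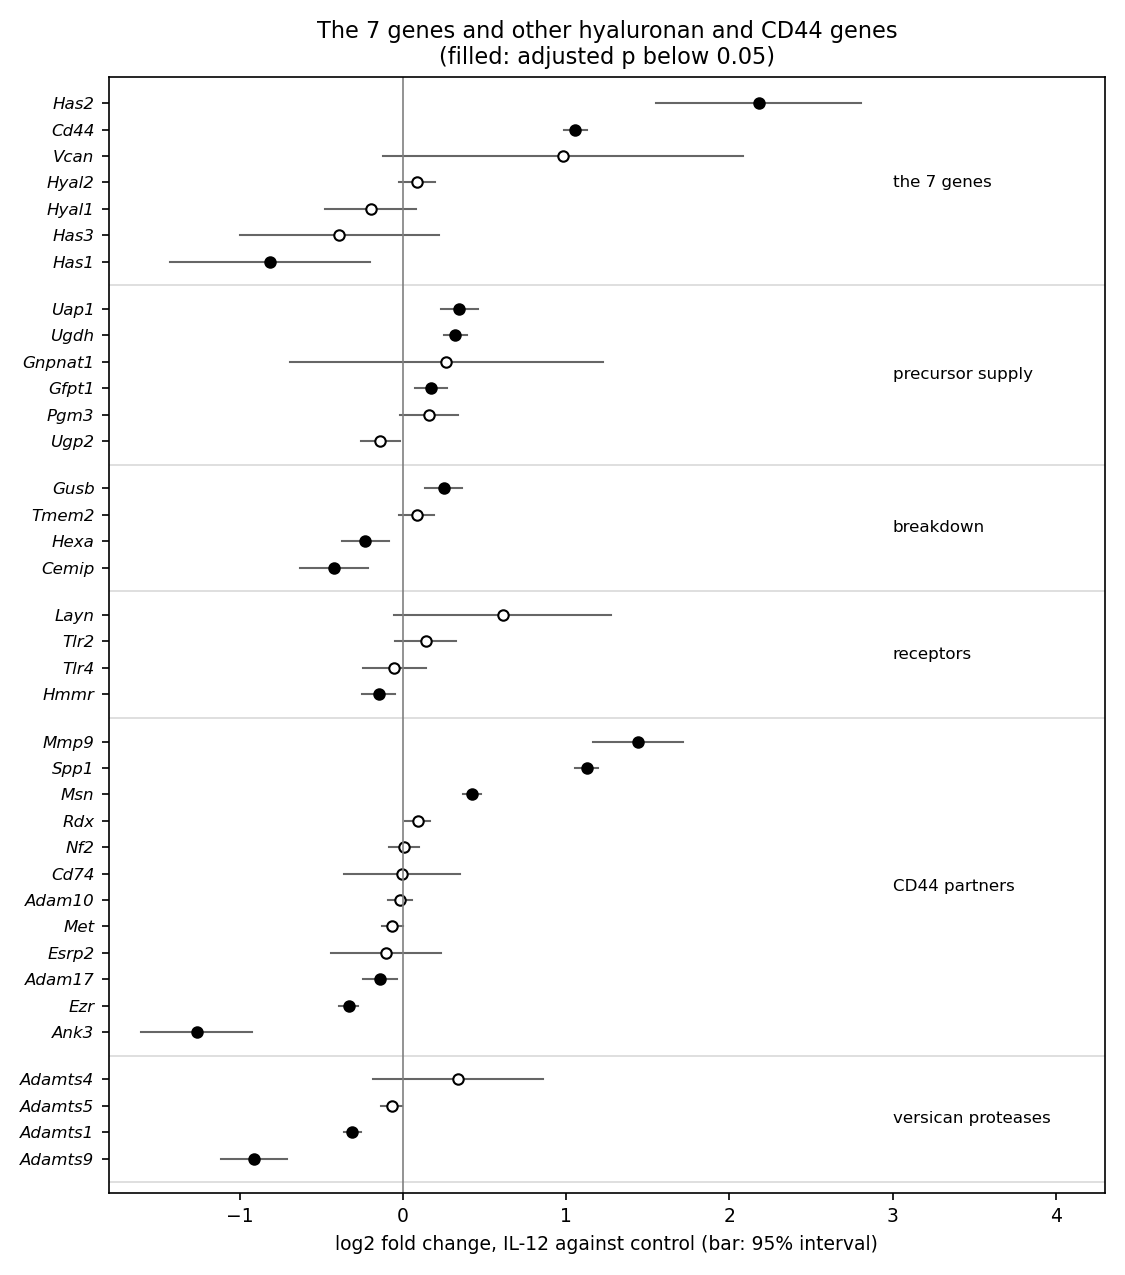
log2FC (IL-12 against control) of the 7 genes and of other pathway genes tested, by group, with 95% intervals and filled points for an adjusted p below 0.05 by edgeR's quasi-likelihood test. Has2 at 2.18 is the highest and Ank3 at -1.26 the lowest of the genes drawn, and the intervals of Has2 and Has1 do not meet.

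Among the genes with a mean log2 CPM within 1 of that of Cd44, those whose log2 CPM, centred on the gene mean, lay closest to Cd44 over the 4 libraries were Fbln2, Plin2, Tm4sf1, Tagln2 and Vgll3, at Euclidean distances of 0.176, 0.197, 0.230, 0.236 and 0.308. Their levels were 1.70 to 2.43 times higher in the IL-12 group than in the control group, and 4 points cannot separate such profiles from those of other genes that rose.

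The estimates of Cd44 and Has2 moved little when a library was left out. Over the 4 such fits the log2FC of Cd44 was 1.05 to 1.07 and that of Has2 was 2.13 to 2.23, and both genes passed in each of them. In these fits the lone library of a group is assumed to vary like those of the other group. With FPKM values on the log2(FPKM + 1) scale the change of Has2 was 0.61, because the pseudocount exceeds its level, and it still passed (adjusted p = 0.00502 from limma).

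**Figure D4:**
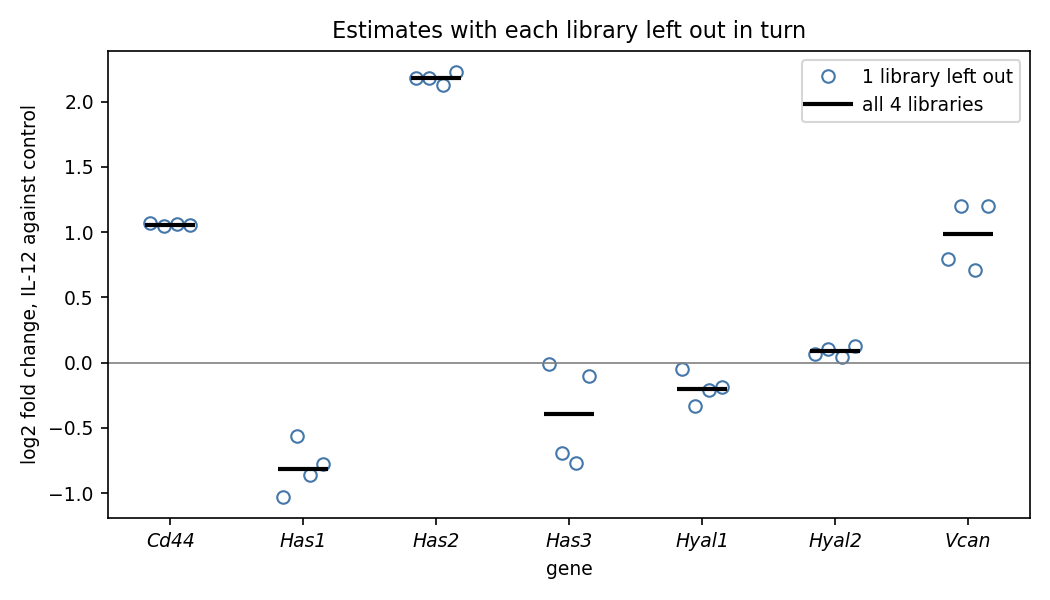
log2FC of each of the 7 genes with all 4 libraries (line) and with each library left out in turn (circles). Cd44 and Has2 stay within 1.05 to 1.07 and 2.13 to 2.23, whereas Has3 ranges from -0.77 to -0.0076.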

How the data were processed

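The authors deposited raw read counts per gene and FPKM values for 4 libraries. Their processing notes name HISAT2, StringTie and mm9, without versions. The gene coordinates equal those of GENCODE M21 (GRCm38) for 98.3% of the 54495 genes in both, and for all 7 genes here, so GRCm38 is given. The deposited FPKM equal library-scaled counts per kilobase times 1 factor per library (0.985 to 1.02) and add no information.

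Counts were filtered (filterByExpr, minimum 10, total 15), scaled by TMM and tested with edgeR 4.0.16 (quasi-likelihood, Benjamini-Hochberg over 14095 genes) in R 4.3.3, without a replicate block. The standard error is the log2 fold change over the square root of F. Alternatives used DESeq2 1.42.0, limma 3.58.1, other scalings and filters, FPKM, the block, and 1 library left out. The genes and lists were chosen with earlier results of these data known. Named pathway genes were those past the test, up to 4 per list by p-value; other listed genes named with their values were chosen after these were seen. Some listed genes are not reported here by name. Figures were drawn with matplotlib 3.10.9.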

Additional observations from a re-analysis of the deposited data

How the results depend on the processing

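Cd44 and Has2 kept their direction and passed in all 15 alternatives, and Has3, Hyal1, Hyal2 and Vcan passed in 0 of theirs. Versican had no value where 10 counts were required in every library, and no adjusted p in the DESeq2 Wald test. The log2 fold change of Has1 stayed negative throughout but did not pass with the DESeq2 Wald test (-0.82), limma voom (-0.79), no filter (-0.81), log2(FPKM + 1) (-0.24) or log2(FPKM + 0.1) (-0.65), and it ranged from -1.03 to -0.56 with 1 library left out. Fewer genes passed over the whole table with the DESeq2 Wald test (2705 against 4297), with a 2-fold limit added (227) and with 1 library left out (2528 to 3722, the lowest without the first IL-12 library). With scaling by total counts only, 40.5% of all calls were upward against 52.8% with TMM, and the 7 genes were called alike. With the replicate number as a block 4341 genes passed, and of the 7 genes the same 3 did. The deviations of same-numbered libraries correlated at -0.027, so no shift shared by the same number was seen. With 2 libraries a group, this cannot show whether cultures were paired. The cause of these differences was not tested. Has1, Has2, Has3 and Vcan had 42 to 189 counts in all, which limits the precision of their values.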
